A study of Mus musculus with 6 samples.

Results

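The CDK inhibitor genes are the 7 genes Cdkn1a, Cdkn1b, Cdkn1c, Cdkn2a, Cdkn2b, Cdkn2c and Cdkn2d, chosen by their gene symbols among the 54532 genes of the deposited expression table. Each symbol was found once. Their mRNA was measured by RNA-seq of poly(A) RNA in the hearts of 6 male mice of 12 weeks, with 1 library per mouse. The 3 Mc4r KO mice were homozygous for a knockout of Mc4r, a receptor known for the control of body weight by the hypothalamus, and the 3 WT mice were littermate controls from the same matings of heterozygotes. The line was bought, is kept on a C57B/6/N background and lacks the gene in every tissue, so a difference in the heart cannot be assigned to the heart itself. The deletion could not be checked in these libraries, because only 2 reads fell on Mc4r, both from WT replicate 3.

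CDK inhibitors are small proteins that bind cyclin-dependent kinases and halt the cell cycle. The Cip/Kip proteins p21 (Cdkn1a), p27 (Cdkn1b) and p57 (Cdkn1c) bind complexes of several cyclins and kinases, and the INK4 proteins p16 (Cdkn2a), p15 (Cdkn2b), p18 (Cdkn2c) and p19 (Cdkn2d) bind the kinases Cdk4 and Cdk6 alone. Most adult cardiomyocytes have left the cell cycle, and p21 is the textbook target of the stress-activated transcription factor p53.

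In Mc4r KO hearts, Cdkn1a mRNA was 4.40 times its WT level and became the most abundant of the 7 mRNAs. Cdkn2d was 1.45 times higher without passing the test, and the other 5 genes had overlapping values in the 2 groups. Levels are given as FPKM, mapped fragments scaled to the gene's length and by a factor for each library, a unit that allows comparison between genes of different length. Differences are log2 fold changes of FPKM + 0.1 from a limma fit to the 18035 genes whose mean FPKM reached 0.1. A gene was called changed where its log2 fold change exceeded 0.75 in size and its Benjamini-Hochberg adjusted p was below 0.05. All 7 genes were tested, and 1 of them was called, in the direction of higher expression in Mc4r KO, as were 0.316% of all genes tested. None of the 7 was called lower, against 0.144% of all genes. The median log2 fold change of the 7 genes was -0.08 (-0.25 to 0.04 over the alternative analyses), beside -0.01 over all genes tested (-0.19 to 0.02).

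**Figure D1:**
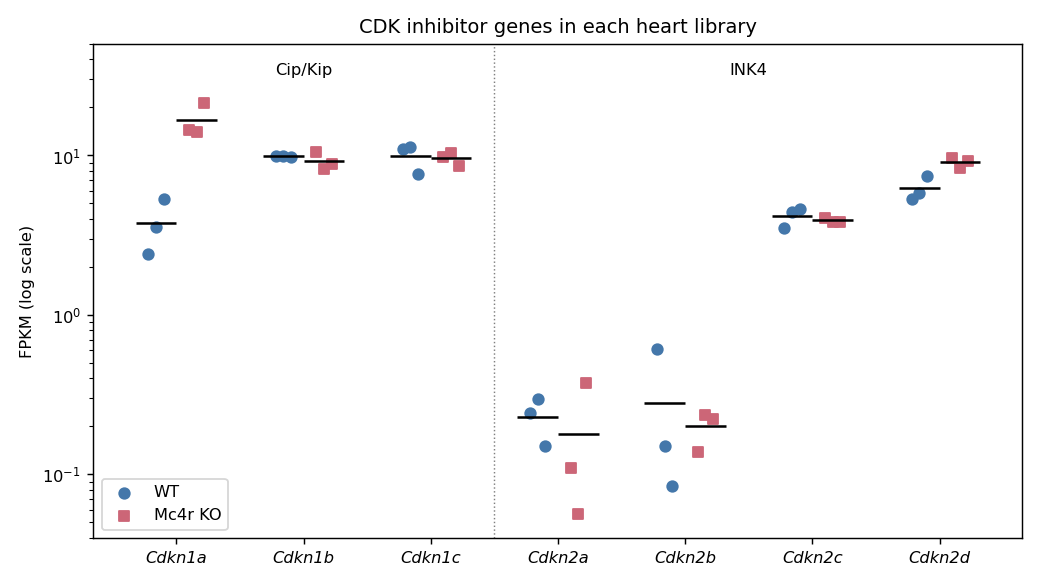
FPKM (log axis) of the 7 CDK inhibitor genes in the 3 WT (blue circles) and 3 Mc4r KO (red squares) libraries, with group means as black bars. Cdkn1a lies between 2.42 and 5.34 in WT and between 14.1 and 21.4 in Mc4r KO, Cdkn2d is also free of overlap, and the other 5 genes overlap.

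Each library held 14691076 to 16047003 reads on genes. Mitochondrial genes made up 47.1% to 59.3% of the summed FPKM in WT and 43.0% to 46.6% in Mc4r KO, without overlap. WT replicate 3 stood apart from the other WT mice. Over the 11297 genes whose mean FPKM reached 1, its correlation was 0.946 and 0.952 with WT replicates 1 and 2 and 0.962 with Mc4r KO replicate 1. The summed FPKM of atrial markers was 798 in WT replicate 3 and at most 137 in the other libraries, and that of epicardial markers was 23.5 against at most 7.14. Erythroid markers were at 859 to 6344 in WT and 620 to 1651 in Mc4r KO. Cardiomyocyte markers marked the tissue as heart in every library, with sums of 12271 to 12942 in WT and 14846 to 16379 in Mc4r KO. Actc1 was the largest part of that sum (mean FPKM 5178 in WT and 7539 in Mc4r KO). Of the 7 markers 2, Tnni3 and Pln, had log2 fold changes below 0 (-0.01 and -0.33). No single marker of any list was called. Fibroblast markers summed to 185 to 189 in WT and 136 to 155 in Mc4r KO, a sum dominated by Dcn (mean FPKM 119 and 82.4), while 2 of the 6, Col1a1 and Col1a2, had log2 fold changes above 0 (0.44 and 0.03). Lymphocyte and adipocyte markers summed to at most 1.97. In whole tissue, fewer cells of a type and less RNA per cell cannot be told apart, and the part of these shifts in the results below was not tested.

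Cdkn1a (ENSMUSG00000023067, chr17:29090976-29100727 in mm10, plus strand) had FPKM of 2.42, 3.57 and 5.34 in WT replicates 1, 2 and 3 and of 14.4, 14.1 and 21.4 in Mc4r KO replicates 1, 2 and 3. The groups did not overlap, and the lowest Mc4r KO value was still well over the highest WT value, which came from WT replicate 3. The underlying reads numbered 121, 182 and 323 in WT and 792, 760 and 1219 in Mc4r KO. The means were 3.77 ± 1.47 (SD, n = 3) and 16.6 ± 4.14 (SD, n = 3), and the log2 fold change was 2.15 (SE 0.29, 95% interval 1.47 to 2.84, adjusted p = 0.0415). The gene ranked 42 of 18035 by its log2 fold change and 13 of the 11297 genes whose mean FPKM reached 1. The exact permutation test on the FPKM gave p = 0.1, the smallest value that 3 against 3 libraries allow.

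The call of Cdkn1a was close to its threshold while its direction and size were steady. Across 20 alternative analyses the log2 fold change lay between 1.88 and 2.43, and the call was made in 12 of them. Among these 12, the fit to FPKM as deposited and the fit without the fold threshold only repeated the reported estimate and adjusted p. Their calls are therefore no separate check. Alternatives that changed only the gene filter, the variance model, the replicate block or the fold threshold kept the estimate at 2.15 by construction. The steadiness of its size rests on the changed pseudocounts, scalings, array weights, voom and the fits without a library. Without WT replicate 3 the log2 fold change was 2.43 with an adjusted p of 0.0166. Leaving out any other library kept it between 1.88 and 2.26 but raised the adjusted p to between 0.157 and 0.220, and in those 5 fits at most 7 genes of the whole table were called. The plot of fits by setting shows that the estimates for Cdkn1a all lie far above 0.75.

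**Figure D2:**
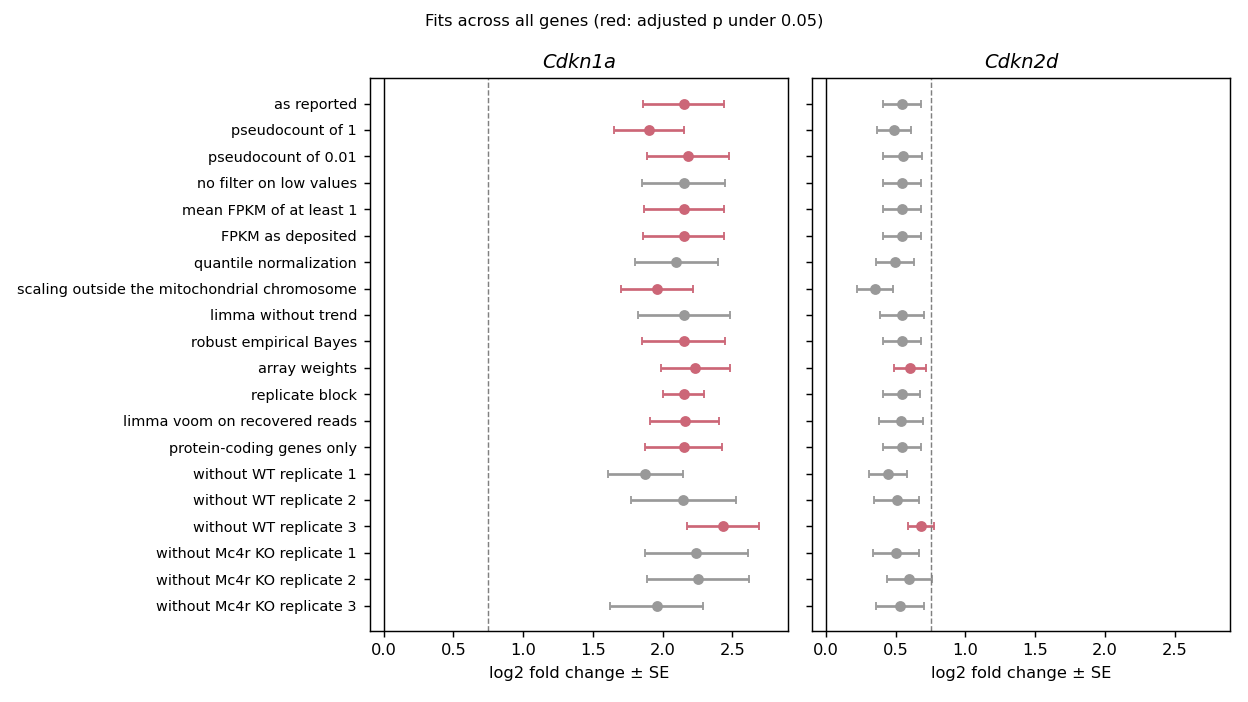
Log2 fold change ± SE (horizontal axes) of Cdkn1a and Cdkn2d in the reported fit and in its alternatives (rows), with the fold threshold of 0.75 dashed and adjusted p under 0.05 in red. Cdkn1a ranges from 1.88 to 2.43 and Cdkn2d from 0.35 to 0.68.

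The annotation gives Cdkn1a 5 transcripts, 4 of them coding, with 2 start sites in RefSeq that lie 2790 bases apart. The 250 bases before each start (RefSeq, GRCm38.p6, the assembly behind mm10) are shown because Cdkn1a carried the change, with those of Cdkn1b, its close relative without one. All are given 5′ to 3′ on the plus strand. The upstream window is chr17:29090729-29090978 with p53 decamers, the repeated unit of the p53 response element, in capitals. The downstream window is chr17:29093519-29093768 and the Cdkn1b window chr6:134920151-134920400, both with the GC box GGGCGG in capitals.
Cdkn1a, upstream start: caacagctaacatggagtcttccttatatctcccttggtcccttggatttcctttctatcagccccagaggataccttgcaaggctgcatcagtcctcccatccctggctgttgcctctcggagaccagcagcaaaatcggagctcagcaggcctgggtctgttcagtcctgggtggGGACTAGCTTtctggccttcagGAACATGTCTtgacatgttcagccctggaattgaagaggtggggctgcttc
Cdkn1a, downstream start: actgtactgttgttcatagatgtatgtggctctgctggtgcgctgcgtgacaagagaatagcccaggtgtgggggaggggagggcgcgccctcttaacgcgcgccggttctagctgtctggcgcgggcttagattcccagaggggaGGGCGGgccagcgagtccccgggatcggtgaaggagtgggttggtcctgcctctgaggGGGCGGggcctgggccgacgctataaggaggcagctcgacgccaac
Cdkn1b: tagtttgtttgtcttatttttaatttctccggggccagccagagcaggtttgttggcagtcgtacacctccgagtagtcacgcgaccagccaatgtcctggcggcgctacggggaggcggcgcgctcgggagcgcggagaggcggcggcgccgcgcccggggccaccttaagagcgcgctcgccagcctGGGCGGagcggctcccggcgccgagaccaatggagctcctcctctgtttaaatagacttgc

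The upstream Cdkn1a window held 2 p53 decamers, GGACTAGCTT at 73 to 64 bases and GAACATGTCT at 51 to 42 bases before the start, and no GGGCGG. Among the 32851 windows of all RefSeq starts, searched on both strands, 7.13% held a decamer and 0.0639% held a pair of them no more than 13 bases apart, as here. The pair holds only decamers that the search matched. The bases that directly follow GAACATGTCT, tgacatgttc, were not matched by the search and are not counted in the pair. Which of these stretches belongs to a working p53 response element was not tested. The downstream window had no decamer and 2 GC boxes, which 32.7% of all windows contain. Cdkn2d (chr9:21291210-21291459, minus strand) had 1 decamer, GGGCTTGCCT, at 102 to 93 bases before its start and overlapping a GC box, 3 GC boxes in all and 1 CCAAT box, which 33.8% of windows contain. The windows of Cdkn1b, Cdkn2a, Cdkn2b and Cdkn2c held no decamer, and 6 of the 7 genes had a window in the table. The Cdkn1b window held CCAAT at 2 places beside its single GC box. None of the 9 windows of the inhibitor genes held the TATA box TATAAA (12.4% of all windows), the E box CACGTG (6.02%) or the E2F motif TTTCGCGC (0.256%). FPKM per gene cannot tell the 2 Cdkn1a starts apart, and a match of letters does not show binding.

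Exons of AC167363.2, a gene model on the opposite strand (chr17:29093416-29094461), cover 7.68% of the exonic bases of Cdkn1a. The use of strand in counting is not given in the sources used here, so reads of both genes cannot be told apart there. AC167363.2 had 2, 3 and 5 reads in WT and 6, 5 and 10 reads in Mc4r KO, small beside the reads of Cdkn1a. Words of 50 bases shared with other genes made up 2.14% of the Cdkn1a transcripts, and the other 6 genes shared none.

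Cdkn1b (ENSMUSG00000003031, chr6:134920401-134925513, plus strand) encodes p27, which keeps resting cells out of the cycle. Its FPKM was 9.88, 9.91 and 9.80 in WT and 10.6, 8.21 and 8.80 in Mc4r KO. The WT mice were nearly identical, and the Mc4r KO values lay on both sides of them. The log2 fold change was -0.11 (SE 0.11, 95% interval -0.37 to 0.15, adjusted p = 0.605), on 568 to 760 reads per library.

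Cdkn1c (ENSMUSG00000037664, chr7:143458339-143461050, minus strand) encodes p57 and is an imprinted gene expressed from the maternal allele. Its FPKM was 11.0, 11.4 and 7.60 in WT and 9.76, 10.4 and 8.59 in Mc4r KO, so that WT replicate 3 was the lowest and the other 2 WT mice the highest of all. The log2 fold change was -0.04 (SE 0.17, 95% interval -0.43 to 0.36, adjusted p = 0.926) and changed sign in 3 of the 20 alternatives. The opposite-strand gene Gm44732 covers 30.7% of its exonic bases and had 1 read in 1 of the 6 libraries.

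Cdkn2d (ENSMUSG00000096472, chr9:21288410-21291407, minus strand) was the second gene without overlap. Its product p19 INK4d is distinct from the p19 ARF protein made from the Cdkn2a locus. The FPKM was 5.36, 5.84 and 7.46 in WT and 9.58, 8.36 and 9.19 in Mc4r KO. The groups did not overlap, as for 14.1% of all genes tested in this direction and 12.4% in the other, and WT replicate 3 again lay closest to the Mc4r KO mice. Of the 7 inhibitor genes, 2 were free of overlap with Mc4r KO higher and none with Mc4r KO lower. The means were 6.22 ± 1.10 (SD, n = 3) and 9.04 ± 0.620 (SD, n = 3), and the log2 fold change was 0.54 (SE 0.14, 95% interval 0.22 to 0.87, adjusted p = 0.105), which did not pass the test. Without WT replicate 3 the log2 fold change was 0.68 (adjusted p = 0.0242), still under the fold threshold, in a fit that called 632 genes over all. Leaving out any other library gave 0.45 to 0.60 with adjusted p of 0.261 to 0.292. Scaling outside the mitochondrial chromosome gave 0.35 (adjusted p = 0.166) and array weights gave 0.60 (adjusted p = 0.0371).

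Cdkn2c (ENSMUSG00000028551, chr4:109660876-109667189, minus strand), which encodes p18, had FPKM of 3.49, 4.43 and 4.61 in WT and 4.08, 3.85 and 3.85 in Mc4r KO. The Mc4r KO values all lay inside the WT range. The log2 fold change was -0.08 (SE 0.13, 95% interval -0.38 to 0.23, adjusted p = 0.775).

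Cdkn2a (ENSMUSG00000044303, chr4:89274471-89294653) and Cdkn2b (ENSMUSG00000073802, chr4:89306299-89311039) lie 11646 bases apart on the minus strand, in a locus known for its rise in senescent cells. Cdkn2a, which encodes both p16 and p19 ARF, had 4, 5 and 3 reads in WT and 2, 1 and 7 reads in Mc4r KO. These correspond to FPKM of 0.242, 0.297 and 0.150 and of 0.110, 0.0562 and 0.372, with the extremes of both ends in Mc4r KO. Cdkn2b, which encodes p15, had 12, 3 and 2 reads in WT and 3, 5 and 5 in Mc4r KO, or FPKM of 0.612, 0.150 and 0.0845 and of 0.139, 0.237 and 0.224. WT replicate 1 alone held most of the WT reads of Cdkn2b. The log2 fold changes were -0.38 (95% interval -1.55 to 0.79, adjusted p = 0.707) for Cdkn2a and -0.11 (95% interval -1.39 to 1.17, adjusted p = 0.934) for Cdkn2b, and differences within these wide intervals were not detectable at this depth.

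The summed FPKM of the 7 genes was 33.0, 35.6 and 35.1 in WT and 48.6, 45.2 and 52.4 in Mc4r KO, 1.41 times higher and without overlap. Without Cdkn1a the sums were 30.8 ± 1.16 (SD, n = 3) and 32.1 ± 1.81 (SD, n = 3) and did overlap (exact permutation test, p = 0.4). Cdkn1a made up 7.33% to 15.2% of the sum in WT and 29.6% to 40.8% in Mc4r KO. The share of Cdkn1b was 27.9% to 30.0% in WT and 16.8% to 21.7% in Mc4r KO.

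**Figure D3:**
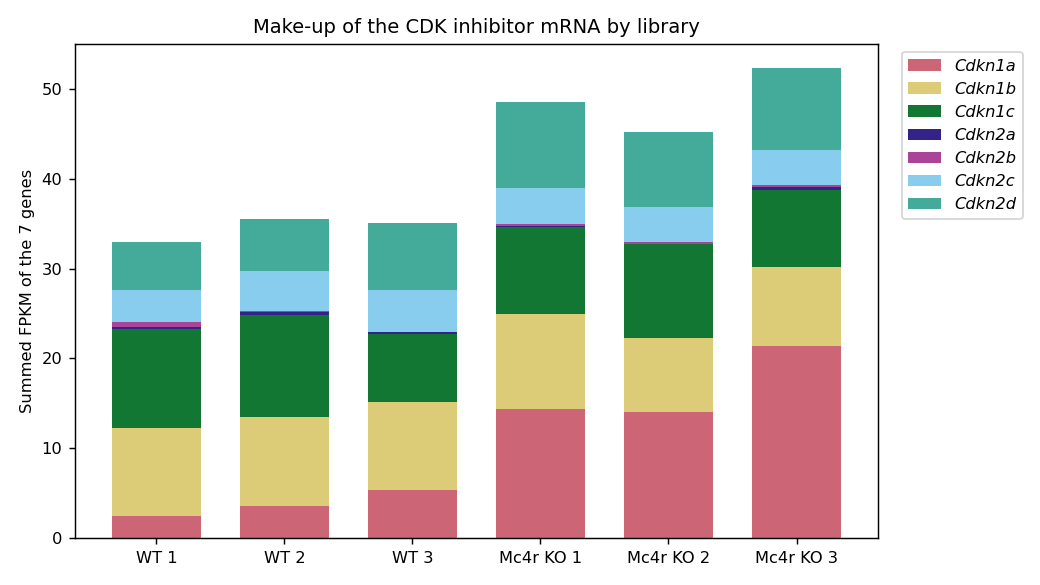
Summed FPKM of the 7 genes (vertical axis, from 0) in each WT and Mc4r KO library, divided by gene. The red segment of Cdkn1a grows from 2.42 to 5.34 in WT to 14.1 to 21.4 in Mc4r KO, while the rest of each bar stays between 29.7 and 34.2.

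The order of the levels differed between the groups. In WT the mean FPKM ran from Cdkn1c and Cdkn1b (9.98 and 9.86) through Cdkn2d, Cdkn2c and Cdkn1a to Cdkn2b and Cdkn2a. The libraries of the neighbours Cdkn1c and Cdkn1b, Cdkn2c and Cdkn1a, and Cdkn2b and Cdkn2a overlapped. In Mc4r KO the order was Cdkn1a, Cdkn1c, Cdkn1b, Cdkn2d, Cdkn2c, Cdkn2b and Cdkn2a, and Cdkn1a was first in each of the 3 mice. Here the libraries of the neighbours Cdkn1c and Cdkn1b, Cdkn1b and Cdkn2d, and Cdkn2b and Cdkn2a overlapped.

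Ratios of genes within a library do not depend on its scaling. The ratio of Cdkn1a to Cdkn1b was 0.245, 0.360 and 0.544 in WT and 1.36, 1.71 and 2.43 in Mc4r KO. The ratio of Cdkn2d to Cdkn2c was 1.54, 1.32 and 1.62 in WT and 2.35, 2.17 and 2.38 in Mc4r KO. Both were free of overlap (exact permutation test, p = 0.1 for each, the smallest possible). The ratio of Cdkn1c to Cdkn1b was 1.01 ± 0.204 (SD, n = 3) in WT and 1.06 ± 0.186 (SD, n = 3) in Mc4r KO, with overlap. When FPKM was rescaled to genes outside the mitochondrial chromosome, Cdkn1a was 3.90 times and Cdkn2d 1.28 times higher, again without overlap.

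Over the 6 libraries Cdkn1a and Cdkn2d followed each other (r = 0.955, a description over 6 points that share the group difference). The genes whose FPKM followed Cdkn1a most closely among 10219 protein-coding genes were Adcy6, an adenylyl cyclase of cardiomyocytes (r = 0.999), the proprotein convertase Furin (r = 0.999) and Klhdc3 (r = 0.998). Furin had mean FPKM of 8.33 in WT and 14.5 in Mc4r KO, a log2 fold change of 0.80 (adjusted p = 0.0535) and a call in 6 of the 20 alternatives, and 847 genes in all had r above 0.9 with Cdkn1a. For Cdkn2d the closest were Agrn (r = 0.994), Fcgrt and Cyhr1, among 810 genes above 0.9. Cdkn1b had 39 such genes, led by the muscle ubiquitin ligase Trim63 (r = 0.977) before Frmd4b and Zdhhc1. Cdkn1c had 117, led by Ccdc66 (r = 0.996) and Mak16, with the endothelial cadherin Cdh5 next (r = 0.987). Cdkn2c had 55, led by Gpsm3 (r = 0.998), Daam2 and Efna5.

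The direct targets of the inhibitors are the cell-cycle kinases and their cyclins, of which 11 of 13 listed genes were tested and limma called none, with 2 at an unadjusted p under 0.05. Over all genes tested 20.9% had such a p. Without overlap 1 of the 11 was higher and 2 were lower, beside 14.1% and 12.4% of all genes. The median log2 fold change of the 11 genes was -0.23, with 9 of 11 below 0. Cdk6, bound by all INK4 proteins, had FPKM of 1.18, 1.35 and 1.76 in WT and 0.967, 0.842 and 0.766 in Mc4r KO, lower without overlap, with a log2 fold change of -0.66 (SE 0.19, adjusted p = 0.130). Ccnd1, the cyclin D1 gene, had FPKM of 12.9, 12.4 and 11.5 in WT and 9.95, 9.99 and 6.23 in Mc4r KO, also without overlap (log2 fold change -0.52, SE 0.19, adjusted p = 0.186). Ccnd3 lay the other way, also without overlap, at 5.06 ± 0.745 and 6.11 ± 0.358 (SD, n = 3 each, adjusted p = 0.279). The log2 fold changes of Cdk4, Cdk2, Cdk1 and Ccnd2 were -0.12, -0.15, -0.22 and -0.23, and their groups overlapped. The cyclins of S phase and mitosis were low, with mean FPKM of 0.157 to 0.724 in Mc4r KO for Ccne1, Ccne2, Ccna2 and Ccnb2, and Ccna1 and Ccnb1 were too low to be tested.

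**Figure D4:**
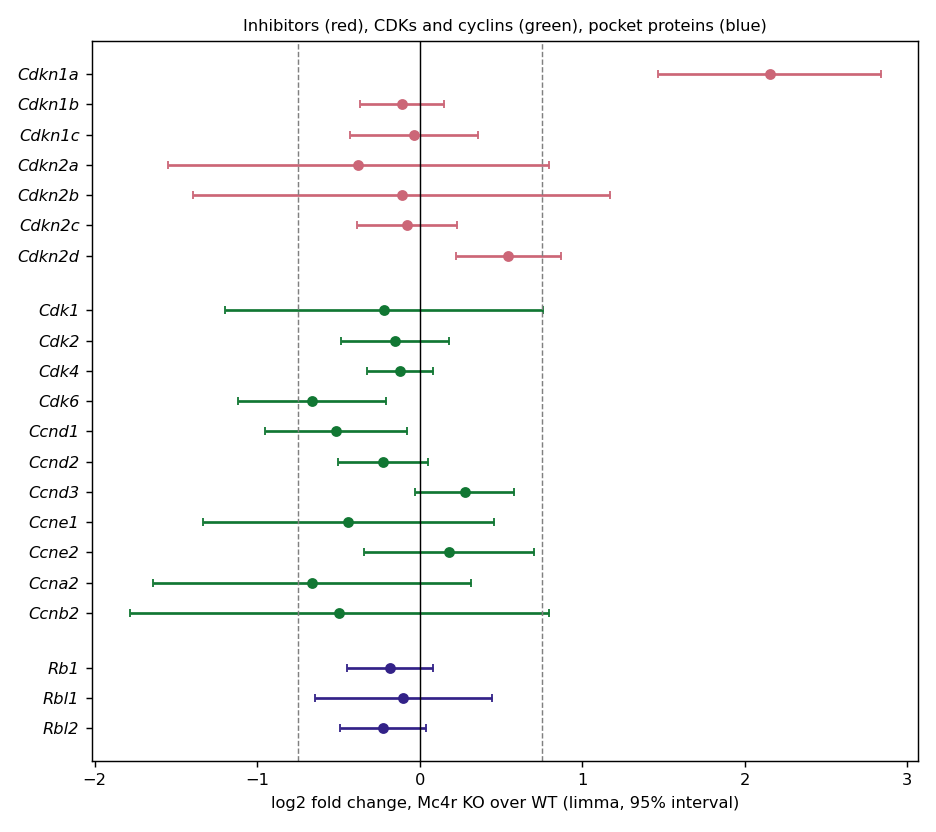
Log2 fold change of Mc4r KO over WT with 95% intervals (horizontal axis) for the inhibitor genes (red), their CDK and cyclin targets (green) and the pocket proteins (blue), with the fold threshold of 0.75 dashed. The interval of Cdkn1a, from 1.47 to 2.84, lies wholly beyond the threshold.

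Kinases and phosphatases that set CDK activity gave no call among 7 tested genes, with 1 at an unadjusted p under 0.05 (20.9% of all genes). In this list the CDK-activating kinase subunit Mnat1 had a log2 fold change of -0.32 (adjusted p = 0.211) and the phosphatase gene Cdc25b one of -0.46 (adjusted p = 0.398). Downstream, the pocket proteins hold E2F factors inactive until CDKs phosphorylate them. None of the 17 pocket protein and E2F genes was called, with 1 at an unadjusted p under 0.05, again beside 20.9% of all genes. Without overlap 1 of the 17 was higher and 4 were lower, beside 14.1% and 12.4% of all genes. Rb1 had mean FPKM of 5.05 and 4.41 and Rbl2 of 6.88 and 5.84 in WT and Mc4r KO, both lower without overlap at log2 fold changes of -0.18 and -0.23, and Rbl1 was at -0.10. The E2F partner Tfdp1 was at 6.25 ± 0.236 and 7.80 ± 0.159 (SD, n = 3 each), higher without overlap, with an adjusted p of 0.110, while Lin54 of the same list was at -0.40 (adjusted p = 0.397).

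Proliferation markers were low in both groups. None of the 20 tested was called, 3 had an unadjusted p under 0.05 (20.9% of all genes), and limma voom on the recovered reads called 1, Mki67. Only 6 of them reached a mean FPKM of 1. Their median log2 fold change was -0.29 (-0.45 to -0.14 over the alternative analyses), with 18 of 20 below 0. That count fell to 15 of 20 with array weights, without WT replicate 3 and without Mc4r KO replicate 3. In Mc4r KO 9 of 20 were lower without overlap, beside 12.4% of all genes. Mcm4, a subunit of the replicative helicase, had mean FPKM of 2.64 ± 0.220 and 1.91 ± 0.162 (SD, n = 3 each, adjusted p = 0.124). Mcm3 was at 1.99 ± 0.178 and 1.32 ± 0.583 (SD, n = 3 each, adjusted p = 0.313).

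Upstream of the inhibitors, Trp53, which encodes p53, had FPKM of 3.77, 4.70 and 4.41 in WT and 3.42, 3.03 and 2.65 in Mc4r KO. It was lower in Mc4r KO without overlap, and its log2 fold change was -0.49 (SE 0.14, adjusted p = 0.124). The p53 protein and its activity were not measured, and a link between them and Cdkn1a was not tested. Of 20 other p53 targets none was called (5 at an unadjusted p under 0.05, and 1, Eda2r, called lower by voom), the median was -0.13, and 1 was higher and 3 were lower without overlap. Over all genes 20.9% had such a p, and 14.1% were higher and 12.4% lower without overlap. Gadd45a and Btg2, both growth-arrest genes, had log2 fold changes of -0.61 and -0.60 (adjusted p = 0.0954 and 0.0949). Fas, which encodes a death receptor and was picked after its values were seen, had 7.52, 6.80 and 7.53 in WT and 11.5, 10.3 and 10.9 in Mc4r KO (log2 fold change 0.58, adjusted p = 0.0514).

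Among 23 tested regulators of inhibitor transcription none was called, though 10 had an unadjusted p under 0.05 (20.9% of all genes). Without overlap 3 were higher and 6 lower, beside 14.1% and 12.4% of all genes. Klf6, a zinc finger factor known to activate Cdkn1a, had FPKM of 26.4, 22.7 and 23.9 in WT and 14.8, 15.4 and 16.9 in Mc4r KO. Its log2 fold change of -0.63 had an adjusted p of 0.0479 and stayed under the fold threshold. Hif1a was at 12.5 ± 2.51 and 8.30 ± 0.526 (SD, n = 3 each, adjusted p = 0.107).

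Proteins of the Cip/Kip family are removed by ubiquitin ligases. None of the 13 tested turnover genes was called, 4 had an unadjusted p under 0.05, and 4 were higher and 1 lower without overlap, beside 20.9%, 14.1% and 12.4% of all genes. Skp2, which recognises p27, was scarce at 0.167 ± 0.0567 and 0.202 ± 0.0517 (SD, n = 3 each). Ubac1, a subunit of another p27 ligase, had 18.9, 16.8 and 20.9 in WT and 24.3, 28.7 and 27.5 in Mc4r KO (log2 fold change 0.51, adjusted p = 0.0843). Fzr1, an activator of the anaphase-promoting complex, was at 6.82 and 9.24 (adjusted p = 0.168).

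None of the 16 Polycomb genes and demethylases known to act at the Cdkn2a locus was called, with 3 at an unadjusted p under 0.05, 3 higher and 3 lower without overlap and a median of 0.05, and these counts were near the 20.9%, 14.1% and 12.4% of all genes. Rnf2 was at -0.34 (adjusted p = 0.209) and Kdm6b at 0.33 (adjusted p = 0.216). In the imprinted domain around Cdkn1c none of 11 tested genes, Cdkn1c itself among them, was called. Of the 11, 1 had an unadjusted p under 0.05, and the median was 0.03. The groups did not overlap for 1 gene with Mc4r KO higher and 0 with it lower, beside 14.1% and 12.4% of all genes. The domain's long non-coding RNA Kcnq1ot1 was too low for the test, at 0.0786 ± 0.0126 and 0.0734 ± 0.0199 (SD, n = 3 each). Tssc4 and Cd81 were at 0.46 and 0.26 with overlapping groups (adjusted p = 0.276 and 0.229). The medians of the turnover, Polycomb and imprinted-domain lists changed sign among the alternative analyses, from -0.11 to 0.10, from -0.13 to 0.12 and from -0.15 to 0.08. The lower ends all came from the scaling outside the mitochondrial chromosome, where the median of all genes was -0.19.

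**Figure D5:**
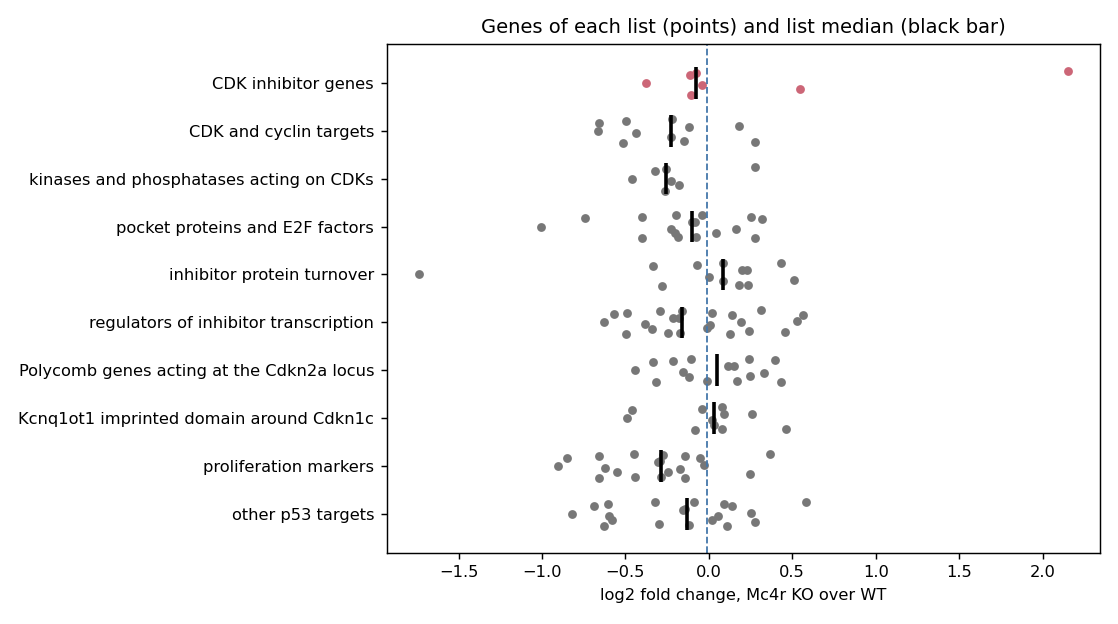
Log2 fold changes of Mc4r KO over WT (horizontal axis) of the tested genes in each list (points), with list medians as black bars and the median of all genes, -0.01, as a dashed line. Cdkn1a at 2.15 is the only point beyond 0.75 to the right, and the proliferation markers have 18 of 20 points below 0.

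The nearest tested genes on the chromosome were picked by position after values were seen, and none was called. Srsf3, 47603 bases before Cdkn1a, had a log2 fold change of -0.12 (adjusted p = 0.503), and the pseudogene Rpl35a-ps3, 36245 bases beyond Cdkn1a, one of 0.51 on 2 to 9 reads per library (adjusted p = 0.591). Kri1, 441 bases from Cdkn2d, was at 0.03 (adjusted p = 0.953), and Slc44a2 on its other side at -0.23 (adjusted p = 0.272). Apold1, 56205 bases beyond Cdkn1b, had FPKM of 7.71, 7.49 and 8.41 in WT and 4.97, 5.09 and 4.28 in Mc4r KO (log2 fold change -0.71, adjusted p = 0.0479), just under the fold threshold.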

How the data were processed

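Poly(A) RNA of 6 hearts was sequenced, 3 WT and 3 Mc4r KO, and groups were taken from the sample titles. The labels call the tissue heart or muscle and the paper's discussion left ventricle. The authors removed reads of low quality, aligned the rest to mm10 with HISAT2 2.0.5, counted reads on genes with featureCounts and deposited FPKM per gene and library. Which annotation release and strand setting were used is not given in the sources used here. Of the deposited identifiers 99.8% were found in GENCODE M21, which gave transcripts, overlaps and shared words.

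Multiplied by gene length, 100% of the FPKM values of a library were whole multiples of the value of 1 read, within a tolerance. The tolerance was 0.01 of a read at low counts and grew with the count at high ones, where the check is weak. Reads were recovered in this way, 14691076 to 16047003 per library. All value columns were matched to a library.

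The main test was limma 3.58.1 in R 4.3.3 on log2(FPKM + 0.1), with the empirical Bayes trend, no covariate, median-of-ratios scaling (factors of 1), a mean FPKM of at least 0.1, two-sided p-values and Benjamini-Hochberg adjustment over 18035 genes. Single values were compared by two-sided exact permutation tests. The mice are separate animals, so the SD is between animals, while counting error is not separated from it. On simulated data with 200 changed genes among 17964 tested, limma recovered 80.5% with 13 false calls. The simulation used a single setting for the spread between mice and the same composition in every library apart from the changed genes. Changed genes were drawn from those with more reads and had fold changes beyond the threshold of the call. No outlying library was simulated, so the share recovered does not give the power of the test on these data.

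The members and lists were chosen with earlier results of these data known. The text names all members, their CDK and cyclin targets, Rb1, Rbl1, Rbl2, Trp53, Skp2, Kcnq1ot1, from each other list the genes called or else the 2 with the largest absolute log2 fold change at a mean FPKM of at least 1, and for each member of that level the 3 protein-coding genes of highest correlation. Other genes named were picked after their values were seen, as stated. Alternatives covered pseudocounts, filters, scalings, variance models, voom on the recovered reads and leaving out each library. Python 3.11.15 and matplotlib 3.10.9 made tables and figures.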

Additional observations from a re-analysis of the deposited data

How the results depend on the processing

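Over all genes 83 were called. The count was 44 with a pseudocount of 1, 22 without the filter on low values, 147 at a mean FPKM of at least 1, 49 with quantile normalization, 41 with scaling outside the mitochondrial chromosome (16 higher and 25 lower, against 57 and 26), 21 without the trend, 204 over protein-coding genes, 317 with limma voom, 435 with array weights and 0 to 632 when a library was left out, with 632 without WT replicate 3. The counts of 0 came from limma, with 2600, 2830 and 2828 genes at an unadjusted p under 0.05. The mitochondrial scaling moved the median of all genes to -0.19. For the CDK inhibitor genes the count of 1 fell to 0 without the filter (Cdkn1a adjusted p = 0.0672), with quantile normalization (0.0532), without the trend (0.137) and in 5 of 6 fits without a library (0 to 1). Of the list genes none was called in the reported fit, 1 with mitochondrial scaling (Klf6), 1 with array weights (Eda2r), 2 with voom (Mki67 and Eda2r), 1 over protein-coding genes (Eda2r), 1 without the fold threshold (Klf6) and 0 to 2 without a library (Cebpb and Cebpd, without WT replicate 3). The cause was not tested.

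Signs turned for genes near 0. With quantile normalization the log2 fold change was 0.00555 for Cdkn2b and 0.00848 for Ccdc66. When libraries were left out in turn the values ran from -0.221 to 0.0664 for Cdkn1c, -0.51 to 0.47 for Cdkn2b, -0.244 to 0.0535 for Rbl1, -0.164 to 0.0221 for Ccdc66, -0.336 to 0.0237 for Mak16, -0.192 to 0.00171 for Cdh5, -0.297 to 0.0308 for Daam2 and -0.273 to 0.0238 for Efna5. Of 1071 values of the tested genes among 57 named genes, 1038 kept their direction and side of the threshold. These values include the fit to FPKM as deposited, which repeats the reported fit. They also include the fits that changed only the gene filter, the variance model, the replicate block or the fold threshold. In those fits the direction could not change, so only the side of the threshold was checked. Ccna1, Ccnb1 and Kcnq1ot1 were not tested and have no value here.

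The labels number the mice 1 to 3 in each group, but same-numbered mice did not deviate together (r = -0.14, 0.01 and -0.08 over 11297 genes) and none correlated best with its own number. With the replicate number as a block 11 genes were called over all, and of the CDK inhibitor genes Cdkn1a stayed called (adjusted p = 0.0439). Cdkn2a and Cdkn2b, with 1 to 12 reads per library, are limited by depth.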
